A study of Mus musculus with 4 samples.

Results

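The 9 genes described here are stromal matrix genes, found by symbol among the 32285 genes of the deposited matrices. They are Col1a1, Col1a2 and Col3a1, which encode the chains of the fibrillar collagens I and III, the small leucine-rich proteoglycans Dcn (decorin) and Lum (lumican), the collagen-binding glycoprotein Sparc, the platelet-derived growth factor receptor Pdgfra, the insulin-like growth factor binding protein Igfbp6 and the immunoglobulin-like leucine-rich repeat protein Islr. Each was followed by class of barcode and by library, asking in which barcodes the genes were found together, and whether those barcodes carried myeloid or tumor genes. A barcode is the sequence tag of a droplet, and a UMI is a tag that counts an RNA molecule once.

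The samples were ascites of female FVB mice, collected 6 weeks after intraperitoneal injection of Br-Luc ovarian tumor cells (p53-/-; brca1-/-; myc; Akt-myr). All mice carried these tumors and received an siRNA modified with locked nucleic acid in jetPEI particles, either the control siCont or siFXR1-LNA, which targets Fxr1. Each group had 2 libraries, and according to the methods each library pooled the ascites of 3 mice, so differences between mice were not seen. The 4 libraries held 78179267 to 113606837 UMIs, and 16874 to 54344 barcodes per library passed the limits of the methods on genes and mitochondrial UMIs. Between 3.41% and 7.84% of the kept barcodes of the smaller library of a pair were also kept in the other library. Hemoglobin took 29.5% and 41.1% of UMIs in the siCont libraries and 10.0% and 9.11% in those labelled siFXR1-LNA. The targeted gene did not separate the groups in the labelled direction. Over all kept barcodes Fxr1 stood at 55.8 and 33.9 CPM (the gene's UMIs scaled to all UMIs of the summed barcodes) in siCont and at 104 and 71.8 CPM in the siFXR1-LNA-labelled libraries. In tumor-like barcodes it stood at 109 and 125 against 140 and 138 CPM (log2 fold change 0.28, SE 0.23, adjusted p = 0.514, edgeR).

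Fibrillar collagens are made by fibroblasts and related mesenchymal cells as trimers of long chains. Collagen I combines chains from Col1a1 and Col1a2, and collagen III is a trimer of the Col3a1 product. The chains are hydroxylated and folded in the endoplasmic reticulum with the help of Serpinh1 and Crtap, trimmed outside the cell by Bmp1, and crosslinked by Lox. Decorin and lumican bind the finished fibrils, and Pdgfra marks many fibroblasts. Blood and immune cells are not the usual makers of fibrillar collagen, although some genes of this program are also expressed in them. Mesothelial cells and tumor cells that take on mesenchymal traits can carry parts of the program.

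On the mouse build GRCm38, Col1a1 lies at chr11:94936224-94953042, Col1a2 at chr6:4504814-4541544 and Col3a1 at chr1:45311538-45349706, all on the plus strand. Dcn (chr10:97479609-97518143) and Lum (chr10:97565128-97572703) are neighbours on the plus strand of chromosome 10. Sparc lies at chr11:55394500-55423183 on the minus strand, Pdgfra at chr5:75152292-75198215 and Igfbp6 at chr15:102144362-102149511 on the plus strand, and Islr at chr9:58156268-58204306 on the minus strand. Islr overlaps Islr2 on the same strand, and both are counted in the matrices, so the values of Islr are uncertain. RefSeq promoter windows (GRCm38.p6) matched 6 of the 9 genes. Those of Col1a2 (chr6:4505368-4505667) and Col3a1 (chr1:45311288-45311587), both on the plus strand, are shown. In the tumor-like class described below, 46 of 70 barcodes with Col1a2 held Col3a1, though only 46 of 348 with Col3a1 held Col1a2. Capitals mark CCAAT (reverse complement ATTGG) and GGGCGG (reverse complement CCGCCC) in Col1a2 and TATAAA (reverse complement TTTATA) in Col3a1, searched on both strands. The marked motifs do not overlap each other.

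Col1a2: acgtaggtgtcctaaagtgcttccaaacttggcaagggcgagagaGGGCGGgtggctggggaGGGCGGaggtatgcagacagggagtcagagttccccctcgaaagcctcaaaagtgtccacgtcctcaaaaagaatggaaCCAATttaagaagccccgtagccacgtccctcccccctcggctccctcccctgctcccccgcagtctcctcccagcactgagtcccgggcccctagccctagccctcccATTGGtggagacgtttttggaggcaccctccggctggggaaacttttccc
Col3a1: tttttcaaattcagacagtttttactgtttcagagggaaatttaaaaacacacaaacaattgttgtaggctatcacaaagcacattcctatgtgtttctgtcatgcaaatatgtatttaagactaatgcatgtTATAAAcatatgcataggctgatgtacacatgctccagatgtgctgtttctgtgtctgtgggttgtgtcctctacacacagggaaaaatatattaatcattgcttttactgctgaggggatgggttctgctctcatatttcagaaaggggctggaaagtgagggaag

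In Col1a2, CCAAT began at -109 and, as its reverse complement, at 1 from the annotated start, and GGGCGG began at -205 and -188. In Col3a1, TATAAA began at -117. Of 32851 RefSeq windows of this length, 37.4% held CCAAT, 35.7% held GGGCGG and 13.6% held TATAAA, so these matches are a description of the windows only.

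Clustering without the 9 genes gave clusters of erythrocytes (38031 barcodes), macrophages (16788), granulocytes (11601), B cells (7675), T cells (2485, 2309, 949 and 1296 by library), tumor-like cells (2856), dendritic cells or DCs (786), mature DCs (713), mast cells (331) and platelets (188). No cluster carried the markers of fibroblasts, pericytes or endothelial cells. A shallow cluster without a name, cluster 0, held 51 and 37 barcodes of siCont and 41139 and 5403 of the libraries labelled siFXR1-LNA. Cluster 0 was led by Ndufa4l2, Sprr1a and Vldlr and had 4 of 9 tumor-like markers raised, and it lost the name tumor-like by a rule on depth set after seeing the data (median 1280 UMIs, against 5739 in the tumor-like cluster). It held 47.7% of the Col1a1 and 61.7% of the Col3a1 UMIs of siFXR1-LNA replicate 1, at 1.72 and 6.46 CPM. The values for tumor-like barcodes below do not include it. The tumor-like cluster was led by Kcnd2, Zfpm2, Ctnna2 and Tenm3, and it held 842 and 124 barcodes of siCont and 1474 and 416 of the libraries labelled siFXR1-LNA. Cluster names rest on marker lists and on a naming rule set with the clusters in view.

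Among classes of at least 50 barcodes, the collagen chains stood highest in tumor-like barcodes in every library. Col1a1 reached 54.0 and 176 CPM there in siCont and 8.90 and 58.4 CPM in the siFXR1-LNA-labelled libraries. Col1a2, its partner chain, reached 71.0 and 221 against 16.6 and 69.4 CPM. Col3a1 reached 84.1 and 311 against 14.6 and 49.6 CPM. The library siFXR1-LNA replicate 1 was lowest for each chain and siCont replicate 2 was highest. In macrophages Col1a1 stood at 0.336 to 0.946 CPM and Col1a2 at 0.262 to 1.08 CPM, and in T cells at 0.905 to 2.04 and 1.63 to 2.04 CPM. Col3a1 was present at low levels in most classes, and more so in siCont replicate 1, where it stood at 13.8 CPM in T cells, 15.4 CPM in erythrocytes and 20.7 CPM in granulocytes. In the other libraries T cells held 2.92 to 5.65 CPM of Col3a1. Among the classes other than tumor-like, the order of the chains rested on few UMIs and changed from library to library.

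Few tumor-like barcodes carried collagen I. Col1a1 had a UMI in 3.68% and 5.65% of tumor-like barcodes of siCont and in 0.746% and 3.61% of those labelled siFXR1-LNA, against 0.201% to 0.540% of T cells, which do not make collagen. Col3a1 was more widespread, in 23.4% and 28.2% against 5.36% and 8.89% of tumor-like barcodes, with 2.98% of T cells in siCont replicate 1 and 0.772% to 1.26% in the other libraries. Median depth was 5235.5 to 8480 UMIs in tumor-like barcodes and 2027 to 2561 UMIs in T cells. After each barcode was thinned to 1000 UMIs, which 827 and 121 tumor-like barcodes of siCont and 1466 and 413 of those labelled siFXR1-LNA reached, Col3a1 remained in 7.26% and 4.96% of tumor-like barcodes in siCont and 1.02% and 2.91% in the libraries labelled siFXR1-LNA, against 0.314% to 1.40% of T cells. Thinned shares of Col1a1 were 2.18% and 2.48% against 0.273% and 1.94%, with 0.0849% to 0.472% in T cells. The tumor-like share of Col1a1 in siFXR1-LNA replicate 1 lay within that range of T cells.

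**Figure D1:**
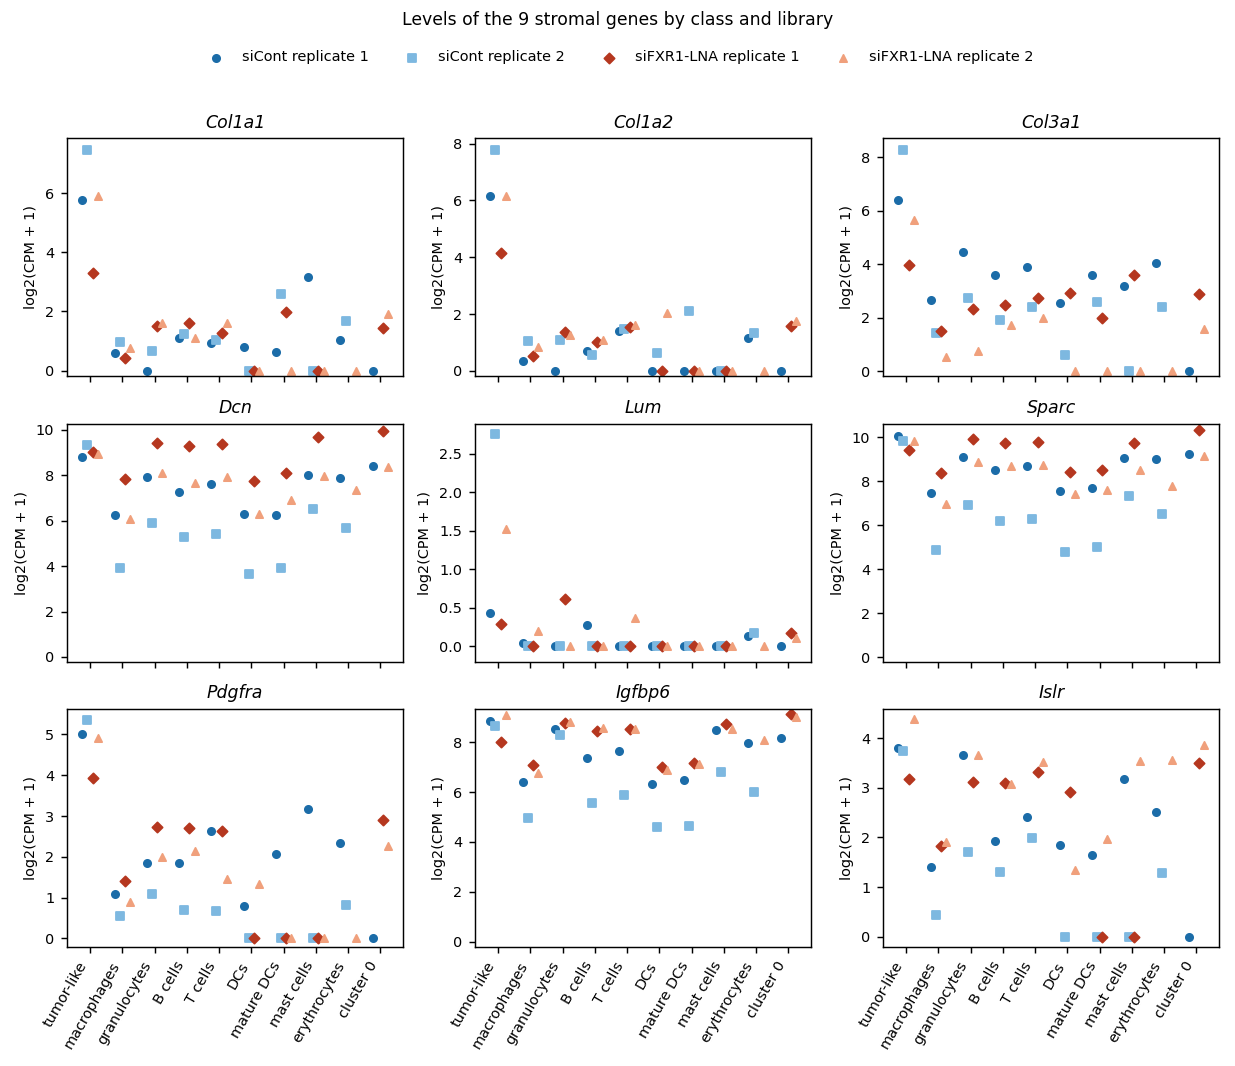
Level of each gene on the log2(CPM + 1) scale (vertical axis) by class (horizontal axis), 1 point per library, for classes with at least 50 barcodes in the library. The 3 collagen chains and Pdgfra are highest in tumor-like barcodes, where Col1a1 lies between 8.90 and 176 CPM, while Dcn, Sparc and Igfbp6 are present in every class and move with the library.

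Pdgfra, the receptor of the set, followed the collagens on a smaller scale. It stood at 31.2 and 40.3 CPM in tumor-like barcodes of siCont and at 14.3 and 29.2 CPM in the siFXR1-LNA-labelled libraries, with a UMI in 7.12% to 12.7% of them. Elsewhere it did not exceed 8.01 CPM in classes of at least 50 barcodes. Islr stood at 12.97 and 12.5 against 7.999 and 19.8 CPM in tumor-like barcodes, which in siFXR1-LNA replicate 1 was within the range of its other classes (T cells 8.95 CPM). Lum was nearly absent, with 9, 12, 16 and 13 UMIs in the kept barcodes of siCont replicates 1 and 2 and siFXR1-LNA replicates 1 and 2. Tumor-like barcodes held 2, 6, 2 and 6 of these.

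Dcn, Sparc and Igfbp6 behaved differently, and were found in every class. For Dcn the B cells, T cells, macrophages and granulocytes held 0.395 to 0.432 UMIs per barcode in siCont replicate 1, 0.113 to 0.124 in siCont replicate 2, 1.28 to 1.46 in siFXR1-LNA replicate 1 and 0.550 to 0.653 in siFXR1-LNA replicate 2. The level differed more between libraries than between these 4 classes, and siFXR1-LNA replicate 1 was highest in each of them. In the classes other than tumor-like with at least 50 barcodes, the ratio of Sparc to Dcn UMIs ran from 1.76 to 2.72 and from 1.77 to 2.27 in siCont and from 1.03 to 1.60 and from 1.33 to 2.20 in the libraries labelled siFXR1-LNA. In tumor-like barcodes it was 2.34 and 1.43 against 1.34 and 1.82, in siCont replicate 2 below the other classes. The ratio of Igfbp6 to Dcn was less even, from 0.840 to 1.53 and from 0.969 to 5.42 in siCont and from 0.507 to 0.645 and from 1.18 to 1.85 in the libraries labelled siFXR1-LNA, and its highest value was that of granulocytes in siCont replicate 2. Where the UMIs of these 3 genes in blood and immune classes came from was not tested.

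Tumor-like barcodes held more of the 3 genes together than the other classes in UMIs per barcode, with 13.3 and 16.4 in siCont and 8.77 and 14.8 in the libraries labelled siFXR1-LNA, against at most 2.09, 0.959, 4.38 and 3.54 elsewhere. Dcn stood at 3.03 and 5.39 UMIs per barcode there in siCont and at 3.08 and 3.74 in the libraries labelled siFXR1-LNA. In CPM the picture differed by library. In siCont replicate 2 Dcn stood at 641 CPM in tumor-like barcodes and 41.2 CPM in T cells, whereas in siFXR1-LNA replicate 1 it stood at 512 against 654 CPM, with Sparc at 685 against 880 CPM and Igfbp6 at 260 against 375 CPM. In that library the tumor-like CPM lay below those of T cells for all 3 genes. After thinning, Dcn was found in 24.2% and 19.8% of tumor-like barcodes and 18.1% and 5.18% of T cells in siCont, and in 36.2% and 32.7% against 46.4% and 23.1% in the libraries labelled siFXR1-LNA.

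Igfbp6 was higher in granulocytes than in T cells. In siCont replicate 2 it had a UMI in 36.8% of granulocytes at 315 CPM, against 14.8% of T cells at 57.5 CPM and 13.4% of B cells at 45.9 CPM, while Dcn stood at 58.1 CPM in granulocytes and 41.2 CPM in T cells. Igfbp6 UMIs per barcode in granulocytes and T cells were 0.661 and 0.445 in siCont replicate 1, 0.613 and 0.167 in siCont replicate 2, 0.918 and 0.840 in siFXR1-LNA replicate 1 and 1.10 and 0.989 in siFXR1-LNA replicate 2. Granulocytes were above T cells in 4 of 4 libraries, and the gap was widest in siCont replicate 2, where their median depth was 1417.5 UMIs against 2561 UMIs in T cells. After thinning, Igfbp6 was in 32.5% and 25.6% of granulocytes and 19.8% and 6.21% of T cells in siCont, and in 36.3% and 37.1% against 31.1% and 31.9% in the libraries labelled siFXR1-LNA.

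The chains of collagen I were found together. Of 64 tumor-like barcodes with a UMI of Col1a1, 52 (81.2%) also held Col1a2, against 18 of 2792 (0.645%) without Col1a1. Col3a1 was in 44 (68.8%) of the Col1a1 barcodes and in 304 (10.9%) of the rest, and Pdgfra was in 33 (51.6%) and 243 (8.70%). The reverse did not hold to the same degree for Col3a1, since 44 of 348 barcodes with Col3a1 (12.6%) held Col1a1. Igfbp6 was less tied to Col1a1, in 49 (76.6%) of the barcodes with it and 1728 (61.9%) of those without. After thinning to 1000 UMIs, 29 of 33 barcodes with Col1a1 (87.9%) still held Col1a2, against 18 of 2794 (0.644%) without.

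Barcodes with a UMI of at least 2 of the 3 chains are called collagen co-positive below, a definition chosen after these counts had been seen. There were 92 among the kept barcodes, 39 and 18 in siCont and 16 and 19 in the libraries labelled siFXR1-LNA. Of these, 60 were tumor-like (30, 6, 9 and 15), and none was shared by a pair of libraries. The tumor-like ones held 2 to 247 UMIs of the chains (median 23), 41 of them had all 3 chains, and 51 had at least 5 chain UMIs. The other 32 were spread over erythrocytes of siCont (5 and 7), cluster 0 of the libraries labelled siFXR1-LNA (6 and 2), macrophages (2, 2, 0 and 1), B cells, granulocytes and mature DCs (2 in each class) and platelets (1), and 21 of them had exactly 2 chain UMIs, with a median of 2 and a maximum of 33. Their share of T cells was 0 of 2485, 2309, 949 and 1296, which allows up to 0.148%, 0.160%, 0.388% and 0.284% (exact 95% binomial interval, counting error only).

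The 60 barcodes carried most of the collagen I message of the kept barcodes in 3 of 4 libraries. Of the Col1a1 UMIs, 78.8% and 57.5% in siCont and 34.2% and 66.2% in the libraries labelled siFXR1-LNA were in co-positive tumor-like barcodes, which were 0.0166% to 0.0889% of the barcodes. For Col1a2 these shares were 83.1% and 67.6% against 45.9% and 70.9%. For Col3a1 they were 9.27% and 37.9% against 6.38% and 52.7%, and the remaining tumor-like barcodes held 22.5% and 15.2% against 13.8% and 19.1%. The definition fixes part of this pattern, since a barcode with several chains cannot stay outside. Left with at most 1 chain, the other 2796 tumor-like barcodes held 3, 1, 3 and 2 UMIs of Col1a1 but 340, 93, 89 and 42 UMIs of Col3a1. Col3a1 was thus also found at a lower level in tumor-like barcodes without collagen I.

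**Figure D2:**
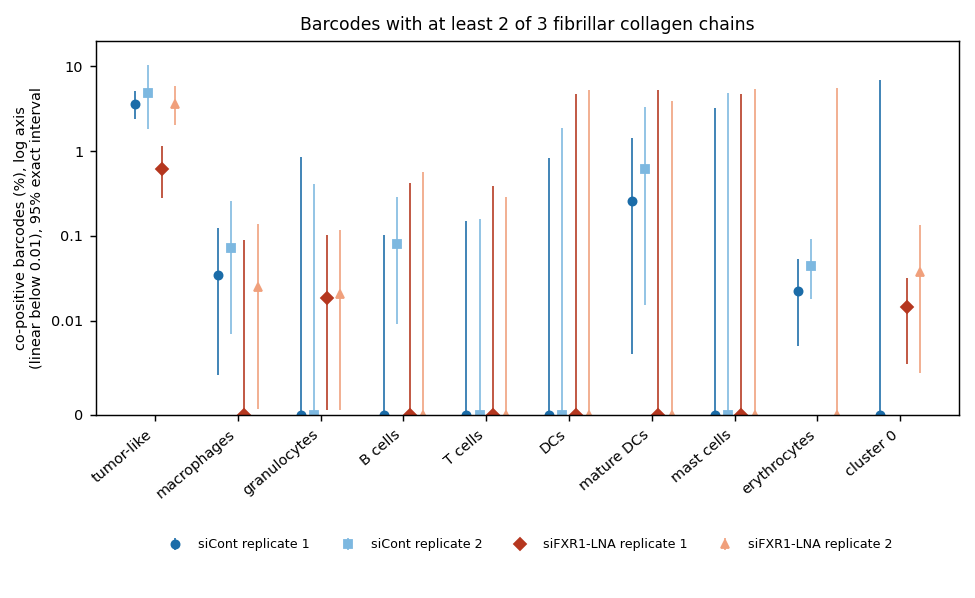
Share of barcodes with at least 2 of the 3 collagen chains (vertical axis, percent, log axis that is linear below 0.01) by class and library, for classes with at least 50 barcodes, with exact 95% binomial intervals. Tumor-like barcodes reach 3.56%, 4.84%, 0.611% and 3.61% in siCont replicates 1 and 2 and siFXR1-LNA replicates 1 and 2, above every other class shown in the same library.

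The other members went with the chains to differing degrees. Of the 60 co-positive tumor-like barcodes, 60 held Sparc, 55 Dcn, 45 Igfbp6, 33 Pdgfra, 7 Islr and 4 Lum. Lum was rare even here, with 1, 6, 0 and 5 UMIs in the 4 libraries. When the tumor-like barcodes were clustered again, 51 of the 60 fell in a subcluster of 421 barcodes, in which they made up 26 of 111 and 6 of 15 barcodes of siCont and 8 of 233 and 11 of 62 barcodes of those labelled siFXR1-LNA. Of this subcluster, 9.74% had Scrublet scores among the highest 5% of their library, against 0.152% to 0.350% in the other 3 subclusters. Of the co-positive tumor-like barcodes themselves, 1 of 60 had such a score, as did 47 of the other 2796 (1.68%).

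The 20 genes of the myeloid list (Lyz2, Cd68, Csf1r, C1qa and others) had a median of 8.16 UMIs per 10000 in the 60 barcodes, 7.83 in the other tumor-like barcodes and 252 in macrophages. By library the medians were 10.1, 2.20, 5.89 and 13.8 in the co-positive and 6.99, 2.68, 8.05 and 10.3 in the other tumor-like barcodes, higher in 2 libraries and lower in 2. Of the 60, 5 (8.33%) had at least 1% of UMIs from the list, against 4.31% of all tumor-like barcodes. The tumor or mesothelial list had UMIs in each of the 60, but as a sum it stood lower than in the other tumor-like barcodes. Its median was 32.3 UMIs per 10000, against 100 in the other tumor-like barcodes and 2.27 in macrophages. In the libraries taken singly these medians were 32.3, 38.6, 31.9 and 32.1 against 155, 152, 92.2 and 72.6. For this sum the co-positive barcodes thus lay between macrophages and the other tumor-like barcodes in every library. The sum holds Kcnd2, Zfpm2, Ctnna2 and Tenm3, which led the tumor-like cluster, and does not speak for each gene. Of 12 listed genes tested against tumor-like barcodes without a chain, 6 were higher in co-positive barcodes. Kcnd2 stood at 438 against 3789 CPM over the summed libraries, and Krt19 at 582 against 222 CPM. The median depth of the 60 barcodes was 8659 UMIs, against 5674 UMIs in the other tumor-like barcodes.

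**Figure D3:**
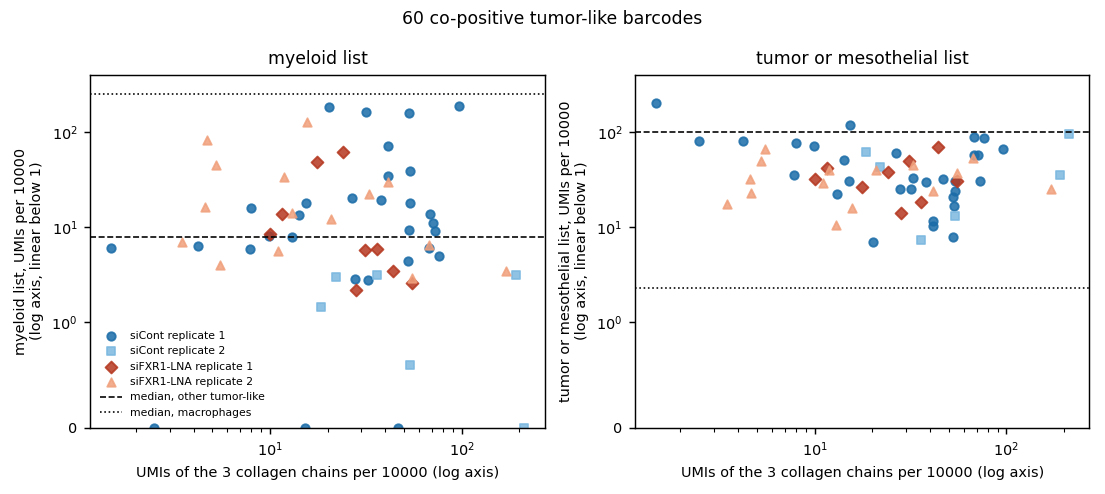
UMIs of the myeloid list (left) and of the tumor or mesothelial list (right) per 10000 against UMIs of the 3 collagen chains per 10000, all on log axes, for the 60 co-positive tumor-like barcodes. Lines give the median of the other tumor-like barcodes (7.83 myeloid, 100 tumor or mesothelial) and of macrophages (252 and 2.27), and most points lie below the tumor or mesothelial median of the other tumor-like barcodes.

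To ask what else these barcodes carried, co-positive tumor-like barcodes were compared with tumor-like barcodes without a chain, as 2 sums per library with the library as a block (edgeR, the 9 genes left out). Of 8826 genes, 2522 (28.6%) passed an adjusted p of 0.05, 14.3% higher and 14.3% lower, so a call alone says little. Other interstitial collagens rose, in 9 of 11 tested genes with none lower, and their median log2 fold change was 4.40 against -0.08 over all genes. Col6a3, a chain of the microfibrillar collagen VI, stood at 257, 528, 199 and 199 CPM with the chains and 0.240, 2.97, 0.123 and 0.358 CPM without (log2 fold change 9.26, SE 0.43, adjusted p = 7.35e-10). Col5a1 (6.53, SE 0.34) and Col5a2 (5.46, SE 0.54), chains of collagen V, which forms mixed fibrils with collagen I, and Col6a2 (4.40, SE 0.47) rose as well. Col5a3 had 25 UMIs with and 0 without, at least 239-fold higher in summed CPM, taking 3 counts over the group as the limit that 0 allows. None of its UMIs were in siFXR1-LNA replicate 2. Col8a1 and Col12a1 did not pass the test (1.14, SE 1.05 and 0.41, SE 0.45).

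Genes that make and crosslink collagen rose in part. Of 17 tested, 7 rose and none fell, with a median of 0.61. Crtap, of the prolyl 3-hydroxylation complex, rose by 3.42 (SE 0.27), the collagen chaperone Serpinh1 by 2.74 (SE 0.24), the crosslinking enzyme Lox by 4.13 (SE 0.42) and the procollagen C-proteinase Bmp1 by 2.58 (SE 0.36) on the log2 scale. The prolyl 4-hydroxylases P4ha1 (-0.36, SE 0.28) and P4ha2 (0.61, SE 0.40) did not pass. Of the fibroblast identity list, 7 of 14 genes could be tested and 6 rose, among them the fibrillin Fbn1 (3.74, SE 0.37), the fibulins Fbln1 (4.54, SE 0.69) and Fbln2 (1.77, SE 0.32) and Thy1 (4.26, SE 0.72). Mfap5 and Twist1 had 23 and 21 UMIs with the chains and 0 without, at least 220-fold and 201-fold higher. Mfap5 stood at 42.1, 61.4, 93.8 and 0 CPM with the chains, so siFXR1-LNA replicate 2 held none. The list's median of 4.26 is the value of Thy1 and stays so with the bounds in place of fitted values.

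Genes of contractile mesenchyme rose with them in the sums, but unevenly over barcodes. Their list had a UMI in 51.7% of the 60 barcodes, against 3.40% of the other tumor-like barcodes. In the 60 it had a median of 0.895 and a maximum of 62.1 UMIs per 10000. Tagln (7.37, SE 0.54), Acta2 (5.47, SE 0.80) and Des (5.57, SE 0.99) were the 3 of 6 pericyte and muscle genes that could be tested. Tagln stood at 345, 0, 234 and 75.6 CPM with the chains, so siCont replicate 2 held none. Among receptors that bind collagen, Ddr2 (4.45, SE 0.61), Itga10 (4.03, SE 0.80) and Mrc2 (2.10, SE 0.45) rose, while Ddr1 (-0.22, SE 0.27) and Itgb1 (0.09, SE 0.24) did not pass. The proteoglycan Bgn rose (3.90, SE 0.28) and Prelp did not pass (0.15, SE 0.46). The endothelial genes Kdr (-1.56, SE 0.73) and Pecam1 (-0.18, SE 0.76) did not pass.

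The tumor or mesothelial list split. Ctnna2 fell by 4.79 (SE 0.45), Kcnd2 by 4.09 (SE 0.57), Tenm3 by 1.36 (SE 0.25), Zfpm2 by 1.35 (SE 0.25) and the mesothelial transcription factor Wt1 by 1.32 (SE 0.23) on the log2 scale. Mesothelin (Msln) rose by 2.96 (SE 0.34) and the keratins Krt19 and Krt8 rose by 1.14 (SE 0.24) and 1.02 (SE 0.32). Kcnd2 stood at 766, 12.3, 46.9 and 371 CPM with the chains and at 6462, 6826, 2650 and 2385 CPM without, lower in 4 of 4 libraries. Krt8 was higher in 3 of 4 libraries, and its call was lost when siCont replicate 1, siFXR1-LNA replicate 1 or siFXR1-LNA replicate 2 was left out, with DESeq2, and after thinning. The calls of Msln, Krt19 and the fibulin Fbln2 were lost after thinning.

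Of 17 myeloid genes tested, 2 rose, the lipopolysaccharide co-receptor Cd14 (2.45, SE 0.58, adjusted p = 0.00497) and the transcription factor Spi1 (1.31, SE 0.41, adjusted p = 0.0241), and none fell. Both calls were lost without siCont replicate 1, and that of Spi1 also without siFXR1-LNA replicate 2. The defining macrophage genes did not pass, as with Csf1r (0.25, SE 0.41), C1qa (0.45, SE 0.43) and Lyz2 (-0.22, SE 0.42). Of 6 granulocyte genes tested, S100a8, S100a9 and Cxcl2 rose (1.49, 1.27 and 1.74). The calls of S100a8 and S100a9 were lost when barcodes with at least 1% myeloid UMIs were removed, those of all 3 without siFXR1-LNA replicate 1, those of S100a9 and Cxcl2 without siCont replicate 1, and that of S100a9 also without siFXR1-LNA replicate 2. None of the 3 calls held after thinning. The granulocyte list summed to 2.10, 0.491, 81.2 and 17.7 UMIs per 10000 in the co-positive barcodes of the 4 libraries and to 0.955, 1.73, 14.3 and 10.0 in the other tumor-like barcodes.

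**Figure D4:**
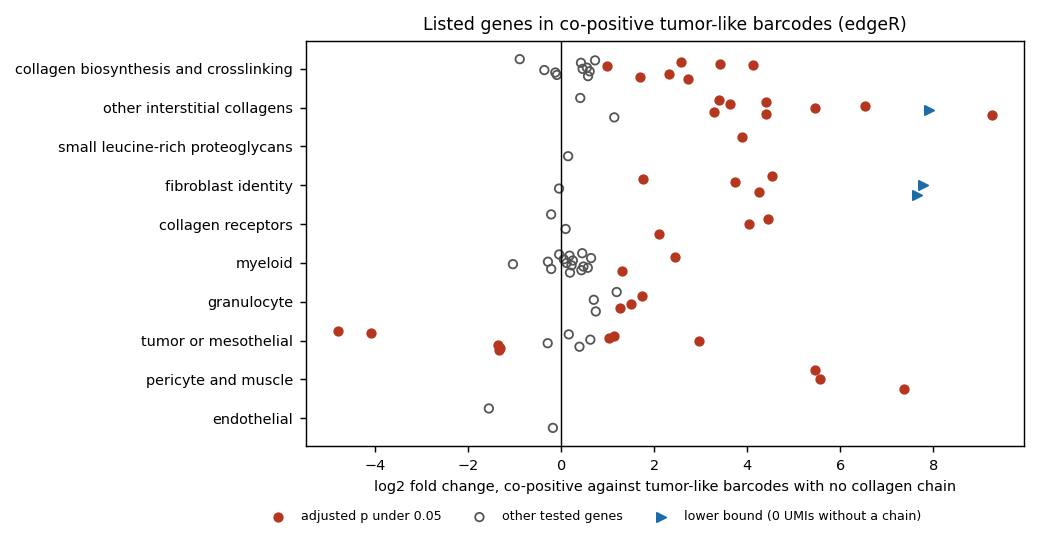
Log2 fold change (horizontal axis) of each tested gene of 10 lists between co-positive tumor-like barcodes and tumor-like barcodes without a chain (edgeR, library as a block, 4 libraries). Filled points passed an adjusted p of 0.05, open points did not, and triangles give a lower bound for 3 genes with 0 UMIs in the barcodes without a chain. 9 of 11 other interstitial collagens rose, while Ctnna2 and Kcnd2 fell by 4.79 and 4.09.

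Outside the lists, the highest fitted fold changes among genes that rose in every library were in the imprinted noncoding RNA Meg3 (97 UMIs with and 0 without, at least 929-fold higher), its neighbour Rian (38 and 0, at least 364-fold), the calcitonin gene Calca (58 and 0, at least 555.3-fold), Nxph1 (45 and 0, at least 431-fold) and Mark1 (21 and 0, at least 201-fold). With the chains Calca stood at 160, 12.3, 11.7 and 124 CPM in the 4 libraries and Nxph1 at 46.3, 61.4, 11.7 and 192 CPM. The pooled bounds of these genes thus rest on the libraries unevenly. The mechanosensitive channel Piezo2 had 86 UMIs with and 1 without, and the Wnt antagonist Sfrp2 had 68 and 1. The adaptor Grb10 (10.17, SE 0.50) and the matrix Gla protein Mgp (10.10, SE 0.36) rose as well, Mgp to 842, 675, 481 and 1223 CPM. The lowest fitted values, which are no bound, were of genes with 0 UMIs in the co-positive barcodes, Exph5 (at least 9.60-fold lower), Cacnb4 (13.5), Map3k21 (7.87), Piwil2 (6.58), Ccdc170 (6.05), BC006965 (5.75), Sorbs2os (4.84), Sema7a (3.31), 6030407O03Rik (3.20) and Adamts16 (2.65). These bounds are smaller than the fitted falls of Ctnna2 and Kcnd2, so the order among them is not known. Of the 61 listed or named genes that were called, 61 stayed called among barcodes of at least 5000 UMIs and 61 with the highest Scrublet scores removed, and 19 of the 26 that could still be tested stayed called after thinning.

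Tumor-like barcodes with exactly 1 chain, 179, 32, 81 and 29 of them, differed little from those without. Of 10627 genes 30 (0.282%) passed the test, 0.216% higher and 0.0659% lower, and of the listed genes Col6a2 rose among the other interstitial collagens. Most of these barcodes held Col3a1 as the only chain.

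Barcodes were also grouped by how many of the 9 genes they held. At least 3 were found in 10.4% and 0.868% of kept barcodes in siCont and in 36.9% and 22.6% in the libraries labelled siFXR1-LNA (difference of means 24.1 percentage points, p = 0.333, two-sided exact permutation test, the smallest p that 2 against 2 allows). The groups did not overlap. Of the 27862 barcodes with at least 3, 86.9% held only Dcn, Sparc and Igfbp6, and 5.60% were tumor-like. Among tumor-like barcodes the share was 49.6% and 41.9% against 55.6% and 65.1%. The share of collagen co-positive barcodes was 0.107% and 0.0717% against 0.0294% and 0.113% of kept barcodes (p = 1, two-sided exact permutation test), and the groups overlapped. Without siFXR1-LNA replicate 1 its difference turned from -0.0185 to 0.0231 percentage points.

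Tumor-like barcodes with at least 3 of the 9 genes were compared with those with none in 3 libraries, since siFXR1-LNA replicate 2 had only 9 with none. The sides were not matched for depth, and deeper barcodes are more likely to show several members. Of 6807 other genes 207 (3.04%) passed, 2.92% of all genes higher and 0.118% lower. Serpinh1 (2.58, SE 0.55), Ppib (1.67, SE 0.47) and Loxl2 (1.61, SE 0.48) of the collagen biosynthesis list rose, as did the keratins Krt8 (2.47, SE 0.53), Krt19 (2.05, SE 0.47) and Krt18 (1.96, SE 0.49) and the uroplakin Upk3b (1.60, SE 0.45). The myeloid gene F13a1 fell by 1.67 (SE 0.48). Outside the lists, Ccl5 (at least 3.94-fold), Dusp1 (3.69), Timp1 (2.56), Cavin3 (2.55), Nbl1 (2.26), Pea15a (2.05), Eva1b (1.96) and Wfdc1 (1.76) had 0 UMIs in the barcodes without members, Igfbp7 and Selenom had 1 UMI there against 719 and 799 with, and Ttc7 fell by 1.73 (SE 0.50). The result rests on the siCont libraries, since 0 genes passed without siCont replicate 1 (323 at an unadjusted p under 0.05) and 3 without siCont replicate 2. With siFXR1-LNA replicate 1 left out 469 passed, and DESeq2 called 5.

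The same split was made in macrophages, in all 4 libraries. Of 12492 genes 212 (1.7%) passed, 1.1% of all genes higher and 0.6% lower. Of 13 tumor or mesothelial genes 7 rose, among them Zfpm2 (1.02, SE 0.17), Wt1 (0.74, SE 0.11) and Krt8 (0.77, SE 0.14), with Pcolce (1.03, SE 0.14), Serpinh1 (0.82, SE 0.18) and Loxl2 (0.79, SE 0.18) of the collagen biosynthesis list. Of 20 myeloid genes 4 fell, the complement genes C1qa (-0.36, SE 0.07), C1qc (-0.34, SE 0.07) and C1qb (-0.30, SE 0.07) and the lysozyme Lyz2 (-0.29, SE 0.07). Igfbp7 (3.60, SE 0.83), Cxcr2 of the granulocyte list (2.59, SE 0.44) and Hspg2 (1.43, SE 0.32) were among the largest rises, with H2-Q10, Ccdc80, Plcb4, Cdr2l, Serping1, Cxadr and 9530026P05Rik. The size of the Igfbp7 rise rests on siCont replicate 2, with 42.1 CPM in 31 barcodes with members against 0.153 CPM without. It stood at 2.17 against 1.49 CPM in siCont replicate 1. In siFXR1-LNA replicates 1 and 2 it stood at 1.85 against 0 and 2.76 against 0.749 CPM. Cxcr2 was also highest in siCont replicate 2, at 42.1 against 2.91 CPM. The chemokine Ccl8 (-1.46, SE 0.22), Cd5l (-0.77, SE 0.09) and Gpnmb (-0.74, SE 0.09) were among the largest falls, with Fabp4, Adarb1, Retnla, Epb41l3, Fcna, Pmepa1 and Slc40a1. Leaving out siCont replicate 1 gave 83 calls, siCont replicate 2 gave 388, siFXR1-LNA replicate 1 gave 122 and siFXR1-LNA replicate 2 gave 136. Macrophage barcodes with several members thus held more tumor or mesothelial RNA and less of these 4 macrophage genes.

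The groups were compared within tumor-like barcodes, where 13138 genes were tested and 969 (7.38%) passed, 2.76% of all genes higher and 4.62% lower under siFXR1-LNA. In tumor-like barcodes 1 of the 8 members tested passed. Col3a1 fell by 2.66 on the log2 scale (SE 0.64, adjusted p = 0.0341, edgeR), from 84.1 and 311 CPM to 14.6 and 49.6 CPM. Its call held with each library left out in turn (log2 fold change -1.40 without siCont replicate 2, -3.63 without siFXR1-LNA replicate 2), where a lone sample is assumed to vary like the others, and was lost with DESeq2 (adjusted p = 0.167). Col1a1 (-1.82, SE 0.73, adjusted p = 0.168) and Col1a2 (-1.79, SE 0.63, adjusted p = 0.119) did not pass. Pdgfra (-0.71, SE 0.34), Sparc (-0.30, SE 0.26), Dcn (-0.10, SE 0.28), Igfbp6 (-0.09, SE 0.32) and Islr (0.07, SE 0.42) did not pass either, and Lum had too few UMIs to be tested. The values of Col1a2, Col3a1, Sparc and Pdgfra did not overlap between the groups, as was so for 52.7% of all genes tested. The fall of Col3a1 was not particular to tumor-like barcodes. It was also lower, without passing, in macrophages (-1.45, SE 0.85), B cells (-1.20, SE 0.82), T cells (-1.28, SE 0.71) and granulocytes (-2.55, SE 0.79). Its group effect in tumor-like barcodes against macrophages was -0.96 (SE 1.22, adjusted p = 0.807, edgeR interaction).

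Without the 60 co-positive barcodes, the chains parted, which the definition partly fixes. A barcode with both chains of collagen I cannot remain, while one with Col3a1 as its only chain must. Col1a1 dropped to 0.549 and 1.04 CPM in siCont and 0.341 and 0.658 CPM in the siFXR1-LNA-labelled libraries, and Col1a2 to 1.28 and 1.04 against 0.796 and 1.32 CPM, too low to test. Col3a1 stayed at 62.2 and 96.7 against 10.1 and 13.8 CPM (log2 fold change -2.71, SE 0.31, adjusted p = 0.000498, edgeR). The barcodes of this fit were selected on counts of Col3a1 itself, so it is no independent test of the fall in the whole class. Within subclusters of tumor-like barcodes, Col3a1 was lower without overlap in 2 of 4. Over the whole class 52.7% of all genes tested did not overlap, and this share was not computed within subclusters. In the subcluster that held 542 and 76 siCont barcodes Col3a1 stood at 66.1 and 115 CPM. In the 29 and 13 barcodes of the libraries labelled siFXR1-LNA there it stood at 12.1 and 0 CPM, values that rest on few UMIs. In a second subcluster of 174, 25, 80 and 67 barcodes it stood at 57.8 and 75.6 against 13.6 and 17.3 CPM. The groups overlapped in the other two. In the subcluster with most co-positive barcodes Col3a1 stood at 204 and 1394 against 28.0 and 235 CPM, and in that of 15, 8, 1132 and 274 barcodes at 0 and 30.0 against 10.9 and 15.4 CPM. Most siCont and most siFXR1-LNA tumor-like barcodes were in different subclusters, so the class did not have the same makeup in both groups.

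**Figure D5:**
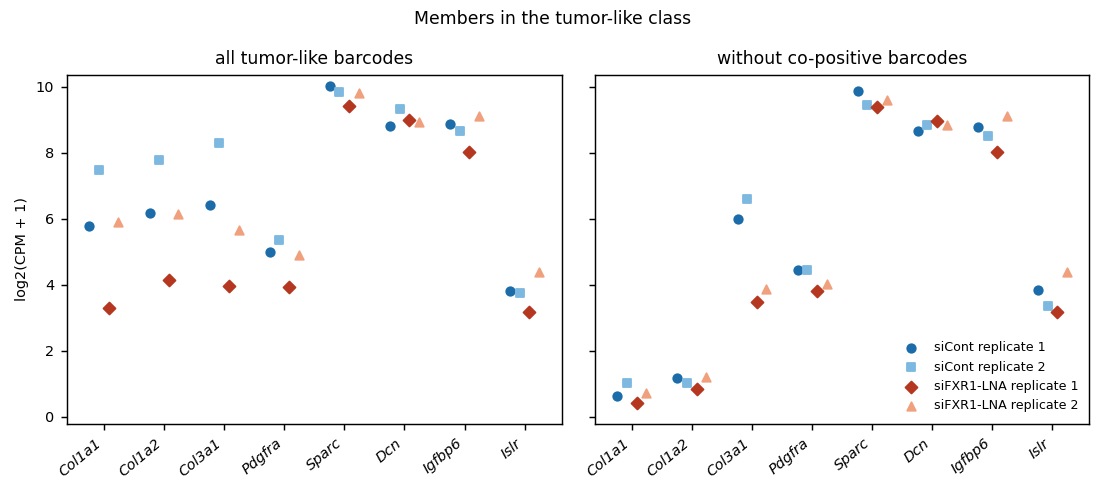
Levels of 8 genes on the log2(CPM + 1) scale in all tumor-like barcodes (left) and without the 60 co-positive barcodes (right), 1 point per library. Without them Col1a1 and Col1a2 fall to between 0.341 and 1.32 CPM in every library, while Col3a1 keeps 62.2 and 96.7 CPM in siCont and 10.1 and 13.8 CPM in the siFXR1-LNA-labelled libraries. The removed barcodes were chosen by their counts of these chains, which partly fixes the difference between the panels.

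Of the genes around the collagens, Col6a1 (-2.18, SE 0.34) and Col6a2 (-2.17, SE 0.37) fell and Col12a1 rose (1.56, SE 0.32) among 10 other interstitial collagens tested, with a median of -1.48 against 0.00 over all genes. Of 18 biosynthesis genes P4ha2 (3.09, SE 0.46), Lox (1.83, SE 0.46), Loxl2 (1.45, SE 0.29) and P4ha1 (1.37, SE 0.32) rose and none fell. None of 6 fibroblast identity genes passed, and the proteoglycan Ogn rose (2.25, SE 0.56). These rises were in part shared with macrophages, where 19.7% of all genes passed. Lox (5.21, SE 0.81), P4ha2 (1.68, SE 0.33), P4ha1 (0.76, SE 0.14) and Ogn (3.86, SE 0.91) rose there too, while Loxl2 did not pass (2.82, SE 0.87). Of 17 biosynthesis genes tested in macrophages, 5 rose and 1 fell. Markers of other cells moved in the tumor-like barcodes. Of 8 granulocyte genes 6 rose, with Cxcl2 at 7.32 (SE 0.42) and a median of 3.08, and their list summed to 0.955 and 1.73 UMIs per 10000 in the tumor-like barcodes of siCont that were not co-positive and to 14.3 and 10.0 in those labelled siFXR1-LNA. Of 20 myeloid genes 4 rose, among them Chil3 (7.07, SE 0.49), and of 13 tumor or mesothelial genes 4 fell, among them Muc16 (-1.97, SE 0.25) and Kcnd2 (-1.36, SE 0.33). Their part in the change of Col3a1 was not tested.

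In macrophages none of 8 members tested passed, where 19.7% of 14864 genes did (9.63% higher, 10.1% lower), and the groups did not overlap for Igfbp6 and Islr, as for 70.6% of all genes. Igfbp6 stood at 83.5 and 30.0 against 137 and 109 CPM (1.32, SE 0.47, adjusted p = 0.108) and Dcn at 74.6 and 14.1 against 224 and 67.1 CPM (1.93, SE 0.91, adjusted p = 0.192). The siCont macrophages were nearly all in a cluster led by Retnla and Apoe (5771 and 2819 barcodes), while 2532 and 2208 of those labelled siFXR1-LNA were in a cluster led by Ms4a4a and Nos2. Over all kept barcodes none of the 9 members and none of 17939 genes (0%) passed in edgeR, and 5 members (Col3a1, Dcn, Lum, Igfbp6 and Islr) did not overlap between groups, as did 53.4% of all genes, with 3499 genes at an unadjusted p under 0.05 and 2006 called by DESeq2. In these bulk sums fewer cells and less RNA per cell cannot be told apart. In B cells, T cells and granulocytes, fits added after seeing the data, no member passed. Of all genes 0.0803% did in B cells (0.0642% higher, 0.0161% lower), 0.454% in T cells (0.284% and 0.17%) and 3.53% in granulocytes (1.06% and 2.47%). Dcn and Igfbp6 had higher values under siFXR1-LNA with no overlap between groups in each of these 3 classes, as did Col1a2 on few UMIs. Sparc and Islr did so in B cells and T cells, Pdgfra in B cells and granulocytes, and Col1a1 in T cells and granulocytes. Col3a1 had lower values without overlap in granulocytes. Of all genes 50.9%, 48.1% and 50.8% had no overlap in either direction in the 3 classes. At resolution 0.3 the granulocytes of the groups were in different clusters, one with 5 and 10 barcodes of siCont and 5415 and 4543 of the libraries labelled siFXR1-LNA, and one with 431 and 892 against 54 and 254. The group effect differed between tumor-like barcodes and macrophages for 125 of 16498 genes (0.758%) and for no member, with Col1a2 nearest (-1.91, SE 0.47, adjusted p = 0.110, edgeR interaction).

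Across 39 sums of a class in a library, the genes most like the mean of the 3 chains on the log2(CPM + 1) scale were Gm50024 (Pearson r = 0.933), 2310014F06Rik (0.932), Gm11734 (0.930), Il22ra1 (0.929), Pdzrn3 (0.928), Gm26671 (0.926), 9330185C12Rik (0.926), 3010001F23Rik (0.924), Col6a3 (0.924) and Sorcs1 (0.923) of 17267 genes ranked. Several of these had few UMIs, as with 59 for Gm50024. The points share libraries and depth, and the value describes a level that is high in tumor-like barcodes. Pdgfra ranked 240 (0.842), and Islr (0.444), Sparc (0.401), Dcn (0.362) and Igfbp6 (0.325) were far less like the chains.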

How the data were processed

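Ascites cells of 4 libraries were profiled by 10x Genomics 3' single-cell RNA-seq. The labels name the v2 kit and the methods v3.1. The values that the authors deposited are raw counts of UMIs. They come from Cell Ranger 7.0.0 and the build mm10 per the submitters' processing notes. Members and gene lists were chosen with earlier results of these data known.

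The limits of the methods (100 to 4800 genes, mitochondrial share up to 15%) were applied to barcodes, and all 4 libraries were used. The methods leave out a siFXR1-LNA sample with fewer reads, which the labels do not name. Kept barcodes were clustered with Seurat 5.3.0 at resolution 0.1, with the 9 members left out of the variable genes. A cluster was named when at least 3 markers of a class were raised (2-fold, in 5% of barcodes), erythrocytes by a median of 30% hemoglobin UMIs, and left without a name where its median depth was over 3-fold below that of the deepest cluster of the same name. This rule was set after seeing the data, and it left cluster 0 unnamed. Scrublet (scanpy 1.11.5) marked 1, 0, 1 and 0 barcodes as doublets and so did not work as a caller. No doublets were removed, and removal of the highest 5% of scores in each library is an alternative.

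Counts were summed per class and library, and the groups were compared with edgeR 4.0.16 (quasi-likelihood test, TMM, filterByExpr with a minimum count of 10, R 4.3.3), with Benjamini-Hochberg adjustment over all genes tested and a threshold of 0.05. In the group fits, edgeR p-values rest on the spread between 2 pooled libraries per group, estimated with information shared over genes. In the contrasts within libraries they rest on how the difference varied between libraries, estimated in the same shared way. Barcodes with and without members were compared as sums within each library, the library as a block, with at least 10 barcodes on each side (5 for co-positive barcodes). Shares were compared by an exact permutation test over libraries and given with exact 95% binomial intervals (scipy 1.17.1). Intervals cover counting error only. CPM divides by all UMIs of the sum. The self-test was run on simulated counts. DESeq2 1.42.0, no filter, the replicate block, each library left out, resolution 0.3, at least 500 genes, thinning to 1000 UMIs and others were alternatives. The co-positive definition and its settings, the fits in B cells, T cells and granulocytes, and the removal of the upper gene limit were chosen after seeing the data.

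Named were all members, up to 4 genes of each list with the smallest p, and the 10 largest rises and falls that ran the same way in every library. Further listed genes were named after their values were seen. For likeness, the 10 genes with the highest Pearson r were named, among genes with at least 50 UMIs over classes of at least 50 barcodes.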

Additional observations from a re-analysis of the deposited data

Results flagged for a closer look

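The barcodes left out by the limits on genes and mitochondrial UMIs, which no comparison above uses, carried collagen RNA. In the left-out barcodes of siFXR1-LNA replicate 2, Col1a1 stood at 93.5 CPM and Col1a2 at 80.1 CPM. In those of siCont the values were 53.7 and 21.4 CPM for Col1a1 and 70.0 and 31.8 CPM for Col1a2, and in siFXR1-LNA replicate 1 they were 8.49 and 8.15 CPM. Of the left-out barcodes over the gene limit, 5 and 4 in siCont and 2 and 10 in the libraries labelled siFXR1-LNA held at least 2 of the 3 collagen chains.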

How the results depend on the processing

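Member calls between groups depended on the fit. In tumor-like barcodes 1 member passed, against 0 with DESeq2, 3 with no filter on low counts, 3 with the replicate block and 1 to 4 with a library left out. In macrophages 0 passed, against 1 with DESeq2, 1 with no filter, 4 with the replicate block and 0 to 2 with a library left out, and over all kept barcodes 0 passed, against 1 with DESeq2 and 5 with the replicate block. The count over all genes in tumor-like barcodes went from 969 to 1922 with no filter, to 1629 with the block and to 634 to 2390 with a library left out. In macrophages it went from 2934 to 8 to 1697 with a library left out (8 without siFXR1-LNA replicate 1), and over all kept barcodes from 0 to 2006 with DESeq2, 384 with no filter, 4190 with the block and 0 to 285 with a library left out. Same-numbered libraries correlated at -0.02 in tumor-like barcodes, 0.38 in macrophages and 0.61 over all kept barcodes in their deviations from the group means. With 2 pairs and no label that ties them, they share only a number. The shares were not compared in pairs, and the contrasts within libraries already have the library as a block.

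Tumor-like barcodes with at least 3 members gave 207 calls, against 39 with at least 2 members, 990 after thinning, 5 with DESeq2, 69 with no filter and 0 to 469 with a library left out. Those of macrophages gave 212, against 118, 53 with DESeq2 and 140 with the highest Scrublet scores removed, the first of these after thinning, and 83 to 388 with a library left out. Co-positive barcodes gave 2522, against 371 after thinning, where 1859 genes could be tested, and 1451 to 2440 with a library left out. The difference in the co-positive share was -0.0185 points, and ran from -0.0601 to 0.0231 points with a library left out (the latter without siFXR1-LNA replicate 1).

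With a library left out, log2 fold changes between groups in tumor-like barcodes ran from -0.39 to 0.23 for Dcn, from -0.65 to 0.32 for Igfbp6 and from -0.57 to 0.60 for Islr. In macrophages they ran from -0.89 to 0.22 for Col1a1 and from -0.63 to 1.45 for Col1a2, and over all kept barcodes from -0.28 to 0.76 for Lum and from -0.056 to 1.54 for Pdgfra. The direction also turned for Dcn (0.18) and Igfbp6 (0.021) in tumor-like barcodes without the co-positive ones, for Islr (-0.10) there with the replicate block, and for Col1a1 (0.36) and Col1a2 (0.062) over all kept barcodes with no upper gene limit. Of the other member values 240 kept direction and side of the threshold, 23 passed it and 1 no longer did. The causes were not tested.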
